A study of Mus musculus with 6 samples.

Results

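Keratinocytes call in and alert other cells through a small set of secreted proteins, and 9 of their genes are described here: the CC chemokines Ccl20, Ccl2 and Ccl7, the CXC chemokines Cxcl1, Cxcl2, Cxcl14 and Cxcl16, and the cytokines Tnf and Tslp. They were chosen by name, with earlier results of these data known. The arrays measured 30142 genes with a probe set naming a single gene, and each of the 9 had 1 such probe set. RNA of epidermis from mouse embryos at E18.5 was hybridised to 6 expression arrays. The 3 arrays of the Rptor cKO group, numbered 1 to 3, came from embryos with a conditional knockout of Rptor, which encodes Raptor, the subunit that presents substrates to the kinase complex mTORC1. The 3 arrays of the wild-type group, numbered 4 to 6, came from littermates without that knockout. Both groups had the same age, and both tissues were parted from the dermis in ammonium thiocyanate. The series description calls the 3 samples of a group biological replicates. Which Cre line was used, which exons it removed and in which cells are points the sources used here do not give.

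Chemokines are small secreted proteins that guide cells bearing a matching receptor, and they are sorted by the spacing of their leading cysteines into CC and CXC types. CCL20 draws cells with CCR6, CCL2 and CCL7 draw monocytes through CCR2, and CXCL1 and CXCL2 draw neutrophils through CXCR2. CXCL14 is made steadily by healthy skin, and CXCL16, the ligand of CXCR6, sits in the membrane until a protease releases it. TNF starts inflammatory signalling through NF-kB, a family of transcription factors that in turn switches on several chemokine genes, and TSLP is an epithelial alarm cytokine that acts on dendritic and other immune cells.

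Of the 9 genes, Ccl20, Cxcl1, Cxcl16, Tnf and Tslp rose in Rptor cKO, none fell, and 4 did not pass the test, which was limma with Benjamini-Hochberg adjustment over all 30142 genes and a threshold of 0.05. The share of all genes called higher by that test was 3.63%, the share called lower was 5.95%, and the share called either way was 9.58%. For 7 of the 9 genes every Rptor cKO array lay above every wild-type array, and this was so for 16.5% of all genes. The median difference over the 9 genes was 0.69 on the log2 scale, against 0.05 over all genes. All differences are Rptor cKO minus wild type in log2 units, so that 1 unit is a doubling. Epidermal sheets hold several cell types, so fewer cells of a type and less RNA per cell cannot be told apart in these values.

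Across genes, arrays of the same group correlated at 0.988 to 0.993 and arrays of different groups at 0.961 to 0.986. Rptor averaged 6.69 ± 0.14 on Rptor cKO arrays, against 7.15 ± 0.27 on wild-type arrays (SD, n = 3 each), a difference of -0.46 that missed the threshold (limma, adjusted p = 0.0990). By Xist and 3 Y-linked genes, Rptor cKO arrays 1 and 3 came from females, and Rptor cKO array 2 and the 3 wild-type arrays from males. Among all genes, 1094 were called higher and 1793 lower, so that 37.9% of calls were higher. That share was 24.2% with array medians subtracted and 48.2% with quantile normalization. Under both, 5 of the 9 genes rose, while 1.94% and 4.83% of all genes were called higher. The level of each gene is set beside the 5222 negative control probe sets, whose median lay between 3.81 and 4.11 and whose 95 percentile lay between 7.46 and 8.07. By that guide 7 of the 9 genes were above the median on all 6 arrays, and 1 of them, Cxcl14, was above the 95 percentile on all 6.

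The DNA just before the start of Ccl20, Cxcl1 and Cxcl2 is printed because these 3 promoters hold a match to the NF-kappaB consensus, shown in capitals. Each stretch is the 250 bases before the RefSeq start of the gene (GRCm38.p6, the same build as mm10), in the direction of the gene. Ccl20 lies at chr1:83116516-83116765, Cxcl1 at chr5:90890995-90891244 and Cxcl2 at chr5:90903649-90903898, all on the plus strand.
Ccl20: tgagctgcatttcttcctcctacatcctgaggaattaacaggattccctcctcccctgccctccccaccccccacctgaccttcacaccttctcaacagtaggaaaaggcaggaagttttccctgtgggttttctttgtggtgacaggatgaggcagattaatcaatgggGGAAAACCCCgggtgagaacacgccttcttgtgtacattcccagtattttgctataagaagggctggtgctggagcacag
Cxcl1: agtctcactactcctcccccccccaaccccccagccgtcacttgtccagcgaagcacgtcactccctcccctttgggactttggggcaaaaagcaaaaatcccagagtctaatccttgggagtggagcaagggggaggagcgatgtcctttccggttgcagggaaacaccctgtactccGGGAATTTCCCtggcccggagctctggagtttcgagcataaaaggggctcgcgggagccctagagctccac
Cxcl2: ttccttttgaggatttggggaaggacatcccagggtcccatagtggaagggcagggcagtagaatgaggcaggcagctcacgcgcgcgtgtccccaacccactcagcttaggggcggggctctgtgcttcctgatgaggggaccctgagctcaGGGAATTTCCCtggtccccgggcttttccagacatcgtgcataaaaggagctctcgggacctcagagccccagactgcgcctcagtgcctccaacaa

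Cxcl1 and Cxcl2 carried the same 11-letter run, in which 2 overlapping matches of the consensus were counted, beginning 71 and 70 bases before the start in Cxcl1 and 97 and 96 bases before it in Cxcl2. The match of Ccl20 was on the opposite strand and began 80 bases before the start. Of 32851 mouse promoter stretches of this length, 7.25% held a match on either strand. Promoters were at hand for 5 of the 9 genes, and the stretches for the other two, Cxcl14 and Tnf, held no match. That of Cxcl14, at chr13:56296552-56296801 on the minus strand, precedes a RefSeq start inside the span given for the gene, so the bases before the outermost start were not searched. The motif TGANTCA, bound by AP-1 factors, was in none of the 5 on either strand, and 6.75% of all stretches held it. TATAAA on the gene's strand began 29 bases before the start of Tnf and was in 7.59% of all stretches. A match is a string of letters only, and binding was not measured.

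Ccl20 (chromosome 1, 83116766 to 83119167, GRCm38.p6), the ligand of CCR6, showed the widest difference of the 9. It read 6.03, 6.93 and 6.12 on Rptor cKO arrays 1 to 3, against 4.16, 4.12 and 4.09 on wild-type arrays 4 to 6. The groups were far apart, with a gap of 1.87 between the lowest Rptor cKO and the highest wild-type array, and the wild-type arrays differed by only 0.072 among themselves. On the Rptor cKO arrays 78.5%, 90.2% and 83.0% of the negative control probe sets read lower than Ccl20, and on the wild-type arrays 55.2%, 55.2% and 54.5% did. In wild type the gene was thus little above the middle of the controls, so no fold is given. The mean was 6.36 ± 0.50 over the Rptor cKO arrays, against 4.12 ± 0.036 over the wild-type arrays (SD, n = 3 each), a rise of 2.24 in measured value (SE 0.21, limma adjusted p = 0.00150). It passed the test with any 1 array left out, with differences from 1.95 to 2.40.

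Cxcl1 (chromosome 5, 90891245 to 90893121), a neutrophil attractant, read 5.91, 5.32 and 4.79 on Rptor cKO arrays 1 to 3, against 4.32, 4.22 and 4.16 on wild-type arrays 4 to 6. The groups did not overlap, but the Rptor cKO arrays were spread over 1.12 units, with array 1 high and array 3 low. In wild type it exceeded only 55.8% to 58.2% of the negative control probe sets, so no fold is given. The measured value of Cxcl1 rose by 1.11 (SE 0.24, adjusted p = 0.0253 in limma). It missed the threshold when Rptor cKO array 2 (adjusted p = 0.0954), wild-type array 5 (adjusted p = 0.0607) or wild-type array 6 (adjusted p = 0.0851) was left out, with differences from 1.07 to 1.12 in those 3 fits.

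Cxcl2 (chromosome 5, 90903899 to 90905938), which acts through the same receptor, lies 10777 bases beyond Cxcl1. It read 5.22, 5.03 and 4.33 on Rptor cKO arrays 1 to 3, against 4.06, 4.30 and 4.21 on wild-type arrays 4 to 6. Rptor cKO arrays 1 and 2 were high, while array 3 exceeded wild-type array 5 by only 0.026. The difference of 0.67 (SE 0.21, 95% interval 0.19 to 1.15) missed the threshold (limma, adjusted p = 0.0919). Without Rptor cKO array 3 the difference was 0.93 and passed (adjusted p = 0.00511). Cxcl1 and Cxcl2 are close relatives in sequence, and probe sequences, which would show whether each probe set reads 1 of them, were not used here. Of the genes within 100 kb of the pair, Cxcl15, a related chemokine, differed by 0.15 (adjusted p = 0.449) and Mthfd2l, a mitochondrial folate enzyme, by 0.34 (adjusted p = 0.0764).

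Cxcl14 (chromosome 13, 56288643 to 56296811), the chemokine of resting skin, was far above the controls on every array. It read 10.24, 10.31 and 10.59 on Rptor cKO arrays 1 to 3, against 9.60, 10.15 and 9.97 on wild-type arrays 4 to 6. The groups did not overlap, with a gap of 0.089, but wild-type array 4 stood below the rest. The difference of 0.47 (SE 0.16, 95% interval 0.12 to 0.83) missed the threshold (limma, adjusted p = 0.106), and it missed it under all 16 alternatives of processing, at 0.32 to 0.60.

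Cxcl16 (chromosome 11, 70454389 to 70459984), the membrane-held ligand of CXCR6, had the tightest Rptor cKO values of the 9 genes. It read 7.09, 7.18 and 7.21 on Rptor cKO arrays 1 to 3, against 6.12, 6.56 and 6.34 on wild-type arrays 4 to 6. The lowest Rptor cKO array lay 0.53 above the highest wild-type array. Cxcl16 exceeded 89.2% to 92.4% of the negative control probe sets on the Rptor cKO arrays and 83.7% to 87.7% on the wild-type arrays. It was under their 95 percentile on every array, so the fold is one of measured values. The mean was 7.16 ± 0.066 over the Rptor cKO arrays, against 6.34 ± 0.22 over the wild-type arrays (SD, n = 3 each), a 1.77-fold rise (difference 0.82, SE 0.12, limma adjusted p = 0.00660). It passed with any 1 array left out, at 0.71 to 0.93.

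**Figure D1:**
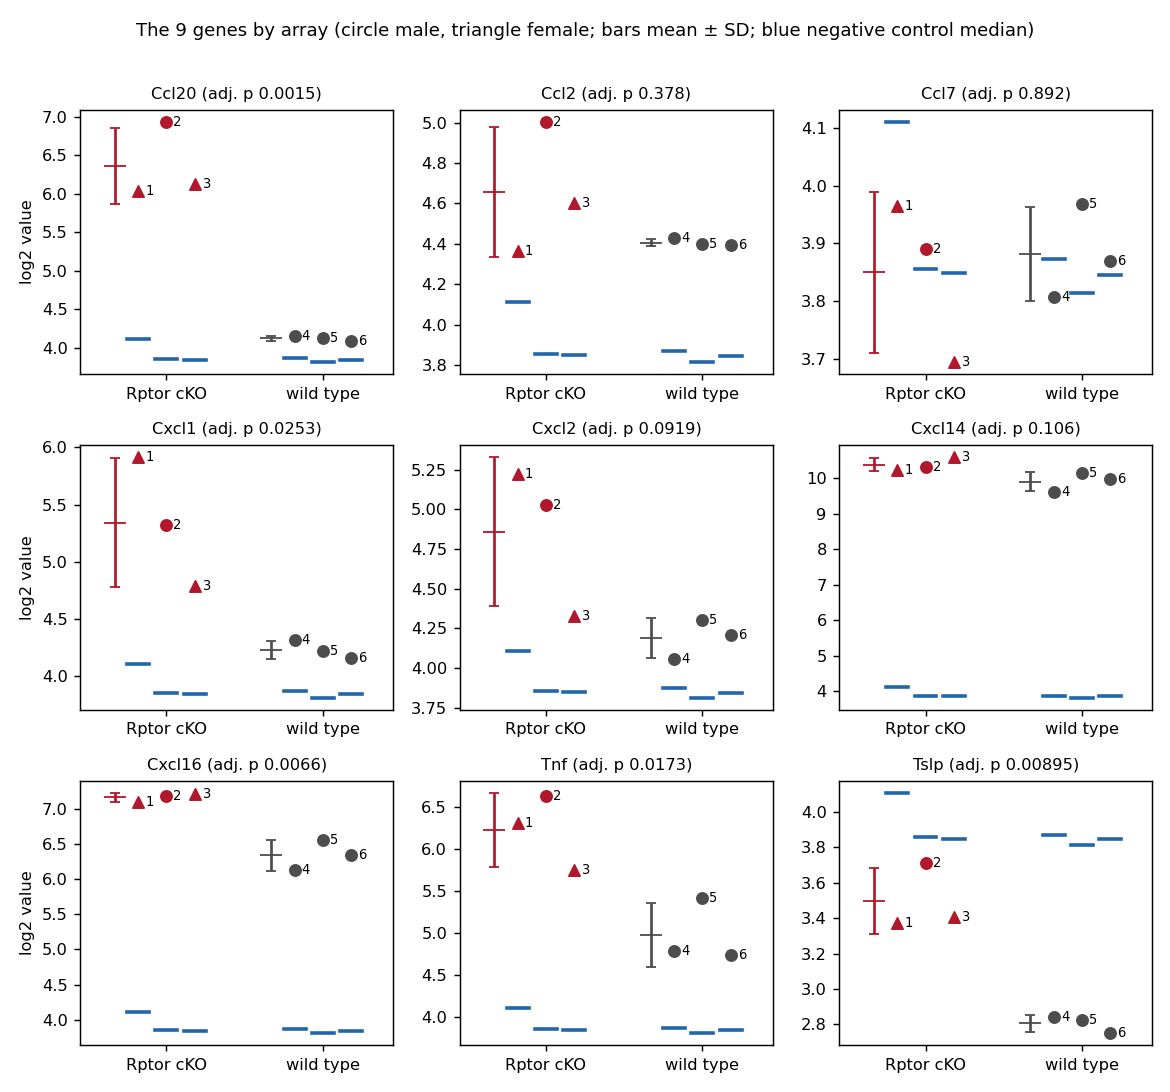
Log2 value (vertical axis, its own range in each panel) of the 9 genes on Rptor cKO arrays 1 to 3 and wild-type arrays 4 to 6; circles are male and triangles female embryos, bars are the mean and SD (n = 3), and the blue dash under or over each point is that array's negative control median. Ccl20, Cxcl1, Cxcl2, Cxcl14, Cxcl16, Tnf and Tslp do not overlap between the groups, Ccl2 and Ccl7 do, and Tslp lies under the blue dash on all 6 arrays.

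The monocyte attractants Ccl2 and Ccl7 did not pass. Ccl2 (chromosome 11, 82035577 to 82037452) read 4.36, 5.00 and 4.60 on Rptor cKO arrays 1 to 3, against 4.43, 4.40 and 4.39 on wild-type arrays 4 to 6. The wild-type arrays lay within 0.034 of each other, and the Rptor cKO arrays lay on either side of them, with array 2 high. The difference was 0.25 (95% interval -0.099 to 0.60, limma adjusted p = 0.378). Ccl7 (chromosome 11, 82045712 to 82047525), 8259 bases beyond Ccl2, read 3.96, 3.89 and 3.69 on Rptor cKO arrays 1 to 3, against 3.81, 3.97 and 3.87 on wild-type arrays 4 to 6. These values lay on either side of the negative control median, and the difference was -0.03 (95% interval -0.27 to 0.21, limma adjusted p = 0.892). The other chemokine genes within 100 kb of this pair, Ccl11, Ccl12 and Ccl8, differed by 0.13, -0.03 and 0.23, with adjusted p from 0.348 to 0.937.

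Tnf (chromosome 17, 35199367 to 35202007) was the second member by size of difference. It read 6.31, 6.62 and 5.75 on Rptor cKO arrays 1 to 3, against 4.78, 5.41 and 4.74 on wild-type arrays 4 to 6. Wild-type array 5 stood above the other wild-type arrays, and the lowest Rptor cKO array lay 0.34 above it. On the wild-type arrays Tnf exceeded 66.0% to 75.4% of the negative control probe sets, so no fold is given for it either. The mean was 6.23 ± 0.44 over the Rptor cKO arrays, against 4.98 ± 0.38 over the wild-type arrays (SD, n = 3 each), a rise of 1.25 in measured value (SE 0.25, limma adjusted p = 0.0173). The call was lost when Rptor cKO array 2 (difference 1.05, adjusted p = 0.0728) or wild-type array 6 (difference 1.13, adjusted p = 0.0668) was left out.

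Tslp (chromosome 18, 32815383 to 32819799) read 3.37, 3.71 and 3.41 on Rptor cKO arrays 1 to 3, against 2.84, 2.82 and 2.75 on wild-type arrays 4 to 6. The groups were 0.53 apart, but all 6 values lay under the negative control median. The measured difference was 0.69 (SE 0.11, limma adjusted p = 0.00895), and no fold is given because of that level. With values raised to each array's control median, and so equal to it, the difference was 0.09 (adjusted p = 0.516). The call thus rests on values within the range of the controls.

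**Figure D2:**
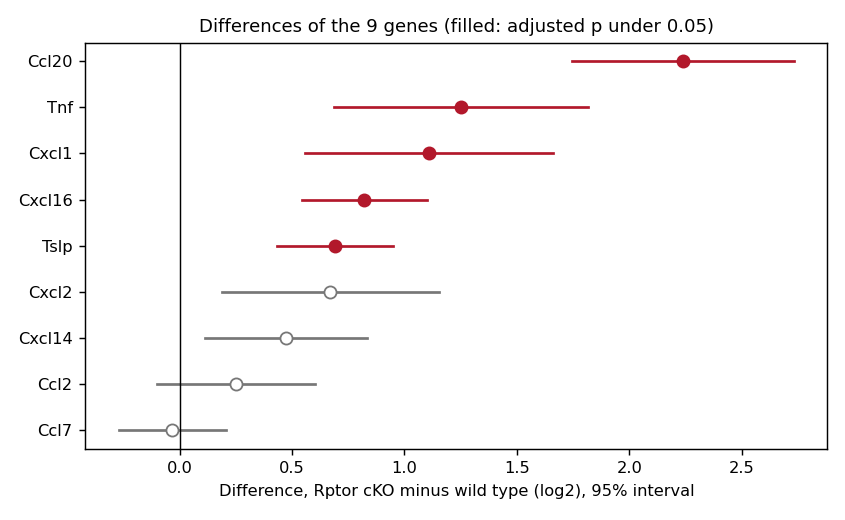
Difference of each gene, Rptor cKO minus wild type in log2 units (horizontal axis), with its 95% interval from limma, not adjusted for the number of genes; filled points passed the adjusted threshold of 0.05. Ccl20 stands apart at 2.24, and the intervals of Ccl2 and Ccl7 include 0.

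The Rptor cKO arrays were more uneven than the wild-type arrays for 7 of the 9 genes by their SD, while 43.2% of all genes had the larger SD in Rptor cKO. The exceptions, Cxcl14 and Cxcl16, had the highest means of the 9. In wild type Ccl20, Ccl2, Ccl7, Cxcl1 and Cxcl2 lay near the negative control median and Tslp under it, and RMA compresses dim values. How far the contrast in SD goes with level was not tested. The array that was highest was not the same for each gene. Cxcl1, Cxcl2 and Ccl7 were highest on Rptor cKO array 1 and lowest on array 3. Ccl20, Ccl2 and Tslp were highest on array 2 and lowest on array 1, Tnf was highest on array 2 and lowest on array 3, and Cxcl14 and Cxcl16 were highest on array 3 and lowest on array 1. Set against the 3 wild-type males, the male Rptor cKO array 2 gave differences of 2.81 for Ccl20 (adjusted p = 0.00108), 1.65 for Tnf (adjusted p = 0.0303), 1.09 for Cxcl1 (adjusted p = 0.0172), 0.90 for Tslp (adjusted p = 0.0288) and 0.85 for Cxcl16 (adjusted p = 0.0864) in limma. This fit takes the lone Rptor cKO array to vary as the wild-type arrays do. As the groups did not overlap for these 5 genes, array 2 was bound to lie above every wild-type array. A part of embryo sex in the differences cannot be told from 1 male Rptor cKO array. With embryo sex as an added term, 2 of the 9 genes, Ccl20 and Tslp, passed, while 0.67% of all genes were called higher.

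The receptors of these ligands were set beside them. Of 12 receptor and scavenger genes measured, none rose, 1 fell and 11 did not pass, with a median difference of -0.03 against 0.05 over all genes. As 3.63% of all genes were called higher and 5.95% lower, such counts among 12 genes do not set this list apart. Ackr4, a scavenger of CC chemokines, fell by 0.73 (SE 0.14, limma adjusted p = 0.0163). It read 4.44, 4.68 and 4.81 on Rptor cKO arrays 1 to 3, against 5.20, 5.62 and 5.31 on wild-type arrays 4 to 6, and its call was lost without Rptor cKO array 2. On all 6 arrays Ccr6, Ccr1, Ccr2, Ccr3 and Il7r lay under the negative control median. The TNF receptor Tnfrsf1a, named after its values were seen, averaged 7.29 in Rptor cKO and 7.28 in wild type (limma adjusted p = 0.962).

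Of 25 other chemokines of skin measured, none rose, 1 fell and 24 did not pass, with a median of 0.12. These counts are near the shares over all genes, of which 3.63% were called higher and 5.95% lower. Ccl6, a chemokine of myeloid cells in mice, fell by 1.17 (SE 0.23, adjusted p = 0.0175). It read 4.12, 4.61 and 4.77 on Rptor cKO arrays 1 to 3, against 6.14, 5.37 and 5.48 on wild-type arrays 4 to 6, and without Rptor cKO array 2 it missed the threshold. On all 6 arrays Ccl8, Ccl9, Ccl12, Cxcl9, Cxcl11, Cxcl13 and Cxcl15 lay under the negative control median.

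Among 18 other cytokines that keratinocytes can make, 1 rose, 3 fell and 14 did not pass, with a median of 0.07. The widest difference of the list was that of Il1a, named after its values were seen. Il1a differed by -2.07 with no overlap between the groups but did not pass (limma adjusted p = 0.0579). Il34, the ligand of the CSF1 receptor that Langerhans cells depend on, read 6.14, 6.20 and 6.66 on Rptor cKO arrays 1 to 3, against 7.79, 8.17 and 7.997 on wild-type arrays 4 to 6. It fell by 1.65 (SE 0.16, adjusted p = 0.00152), with the groups more than 1 unit apart. Il15, which sustains lymphocytes, read 3.98, 4.09 and 4.08 on Rptor cKO arrays 1 to 3, against 5.59, 5.64 and 5.64 on wild-type arrays 4 to 6, a fall of 1.58 in measured value (SE 0.085, adjusted p = 0.000299). Its Rptor cKO values lay near the negative control median, 1 of them under it. Il34 and Il15 both kept their calls with any 1 array left out. Il18 fell by 1.83 (SE 0.37, adjusted p = 0.0201), and its call was lost without Rptor cKO array 2 or wild-type array 6. The alarm cytokine Il33 rose by 0.66 (SE 0.16, adjusted p = 0.0381), with 4 of 6 arrays under the negative control median, and of the 6 fits with an array left out it passed in those lacking Rptor cKO array 1 or wild-type array 4.

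Genes of the NF-kB pathway moved in both directions. Of 15 factors and kinases measured, 2 rose and 2 fell, with a median of -0.07. Nfkb1, Chuk, Traf3, Ripk1, Irak1 and Irak4 of the same list were not among the genes measured. Nfkb2 and Relb, partners in the slower branch of the pathway, rose by 0.70 (SE 0.17, adjusted p = 0.0384) and 0.59 (SE 0.15, adjusted p = 0.0427). Nfkb2 read 6.91, 7.37 and 6.97 on Rptor cKO arrays 1 to 3, against 6.25, 6.70 and 6.22 on wild-type arrays 4 to 6. Of the 6 fits with an array left out, both genes passed in 1, the fit without wild-type array 5, which was the highest wild-type array for Nfkb2, Relb and Tnf alike. Traf6, an adaptor of IL-1 and Toll-like receptors, fell by 1.91 (SE 0.31, adjusted p = 0.00896) and kept its call with any 1 array left out, and Tab2, an adaptor that links it to a kinase, fell by 0.52 (SE 0.14, adjusted p = 0.0486) and kept its call only without wild-type array 5.

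Of 19 feedback and target genes of NF-kB, 2 rose and none fell, with a median of 0.11. Those that rose were again Nfkb2 and Relb, which stand in both lists. With 1 array left out the rises numbered 0 to 5, and they numbered 5 without wild-type array 5. The inhibitors Nfkbia and Tnfaip3, named after their values were seen, differed by 0.64 (SE 0.21, adjusted p = 0.105) and 0.58 (SE 0.20, adjusted p = 0.109). Wild-type array 5 was high for them too, at 8.75 for Nfkbia, against 8.10 and 8.05 on the other wild-type arrays.

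TNF and CXCL16 leave the membrane by proteolysis. Of 5 genes of sheddases and their regulators measured, 1 rose and 1 fell, with a median of -0.11. Rhbdf1, a cofactor that carries ADAM17 to the surface, rose by 0.60 (SE 0.11, adjusted p = 0.0114), and its call was lost without Rptor cKO array 2. Adam17, which releases TNF, fell by 0.48 (SE 0.12, adjusted p = 0.0468), and of the 6 fits with an array left out it passed only without wild-type array 5. Of 9 genes that set the decay of short-lived cytokine messages, Elavl1, which stabilises them, rose by 0.53 (SE 0.098, adjusted p = 0.0145), with a median of 0.08 for the list. That call was lost without Rptor cKO array 2.

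Genes of wounded and alarmed keratinocytes had a median near that of the 9 genes. Of 12 measured, 4 rose, none fell and 8 did not pass, with a median of 0.78. Krt16, a keratin of wounded skin, read 10.44, 10.52 and 11.00 on Rptor cKO arrays 1 to 3, against 9.12, 7.91 and 8.18 on wild-type arrays 4 to 6 (difference 2.25, SE 0.29, adjusted p = 0.00431). Ptgs2, an enzyme of prostaglandin synthesis, rose by 1.15 (SE 0.20, adjusted p = 0.0118), and both kept their calls with any 1 array left out. Hbegf, a growth factor of the EGF family, rose by 1.18 (SE 0.22, adjusted p = 0.0148), and its call was lost without Rptor cKO array 2 or wild-type array 6. Krt17, named after its values were seen, rose by 0.77 (adjusted p = 0.0371) and kept its call only without Rptor cKO array 1. The list also held genes with negative differences, named here for that reason. Il1f9, an alarm cytokine of the IL-1 family, differed by -1.50 with no overlap between the groups (adjusted p = 0.0986), and Sprr2d, a cornified envelope protein, by -0.78 (adjusted p = 0.572), neither of which passed. The rises numbered 2 to 5 with 1 array left out.

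**Figure D3:**
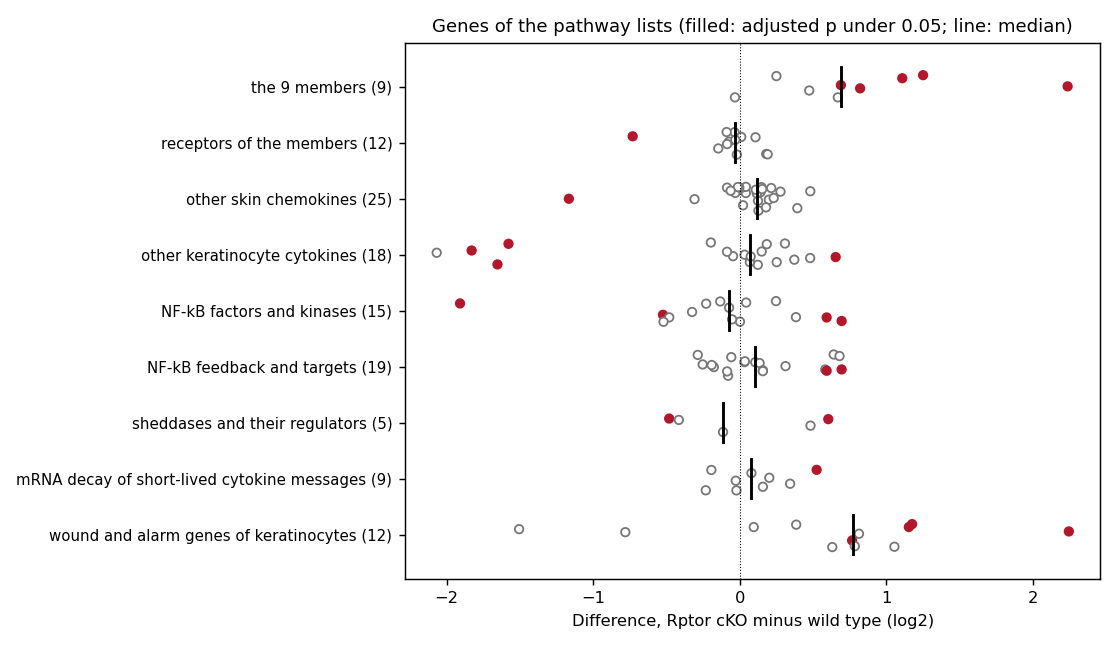
Difference, Rptor cKO minus wild type in log2 units (horizontal axis), of each measured gene in the pathway lists, with the number of genes in brackets; filled points passed the adjusted threshold and the upright line is the median of the list. The 9 genes and the wound genes have medians of 0.69 and 0.78, and the medians of the other lists lie between -0.11 and 0.12.

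Markers of several cell types moved with these differences. Keratinocyte markers had a summed level of 13.65 to 14.36 in Rptor cKO and 14.66 to 14.87 in wild type on the log2 scale. Of 11 such markers 5 fell and 1 rose, and with 1 array left out 1 to 4 fell and 0 to 1 rose. Of the basal keratins, Krt5 averaged 12.22 in Rptor cKO and 12.18 in wild type (adjusted p = 0.912). Krt15, named after its values were seen, averaged 8.81 in Rptor cKO and 11.12 in wild type, which was the widest fall of the list (difference -2.31, limma adjusted p = 0.00693) and passed with any 1 array left out. Krt10, of the layers above, averaged 11.14 in Rptor cKO and 12.91 in wild type and fell (adjusted p = 0.0179), a call lost without Rptor cKO array 1, Rptor cKO array 2 or wild-type array 6. The markers of the labelled tissue were thus present on all 6 arrays.

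Mast cells and fibroblasts can also make several of these chemokines, and the summed levels of their markers were higher on the Rptor cKO arrays. The summed level of 9 mast cell markers was 9.09, 8.82 and 8.52 on Rptor cKO arrays 1 to 3, against 8.04, 8.07 and 8.09 on wild-type arrays 4 to 6. Tpsb2, a tryptase, rose by 0.77 (limma adjusted p = 0.0391), and Kit, which melanocytes share, rose by 0.63 (limma adjusted p = 0.0252). The other 7 did not pass, among them Ms4a2 and Fcer1a of the IgE receptor, which were under the negative control median on every array. The proteases Cpa3, Cma1 and Mcpt4, named after their values were seen, differed by 1.66, 1.37 and 0.97 (limma adjusted p from 0.0605 to 0.112). The groups of Cpa3 overlapped. These proteases were highest on array 1 and lowest on array 3 of the Rptor cKO group. Kit and the melanocyte sum ran the other way. Of the 6 fits with an array left out, Tpsb2 passed in 1 and Kit in 3, and the mast cell markers that rose numbered 0 to 5, so that these calls turn on single arrays. The mast cell sum ran in the same order over the Rptor cKO arrays as Cxcl1 and Cxcl2, highest on array 1 and lowest on array 3. So did the sum of 8 neutrophil markers, none of which passed (7.41, 7.33 and 7.27 on Rptor cKO arrays 1 to 3). The fibroblast sum and the Langerhans and macrophage sum were highest on array 2 and lowest on array 1, as were Ccl20, Ccl2 and Tslp. Few orders of 3 arrays are possible, and what a shared order means was not tested. The summed level of 9 fibroblast markers was 10.34 to 10.56 in Rptor cKO and 9.98 to 10.08 in wild type, and 5 of them rose and none fell. Dcn, a matrix proteoglycan, rose by 0.94 (adjusted p = 0.00267), and the others that rose were Col1a1, Col3a1, Col5a1 and Lum, while Postn differed by -0.23 (adjusted p = 0.334). With 1 array left out the rises numbered 2 to 7; Dcn and Col5a1 passed in all 6 such fits, Lum in 4, Col3a1 in 2 and Col1a1 in 1. The part of these cells in the differences of the 9 genes was not tested.

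No marker in the Langerhans and macrophage, T cell or neutrophil lists was called higher, and of all genes only 3.63% were. Of 16 Langerhans and macrophage markers, none rose and Csf1r, Cx3cr1 and Itgam fell. Csf1r and Itgam passed in all 6 fits with an array left out and Cx3cr1 in 1. The summed level of the list was 8.90 to 9.31 in Rptor cKO and 9.33 to 9.54 in wild type. The pair with the highest means were Tyrobp, which differed by -0.79 (adjusted p = 0.177), and Cd68, which differed by -0.21 (adjusted p = 0.632). Of 7 T cell markers, Cd3g fell and none rose, with sums of 7.28 to 7.34 in Rptor cKO and 7.35 to 7.50 in wild type. Cd3g passed in 2 of the 6 fits with an array left out, and the falls of this list numbered 0 to 2. Thy1 and Il2rb, with the highest means, differed by 0.19 and -0.28 and did not pass. Of 8 neutrophil markers none passed, with sums of 7.27 to 7.41 in Rptor cKO and 7.25 to 7.34 in wild type; Ngp and Retnlg were under the control median on every array, and Cxcr2 and Camp, with the highest means, differed by -0.09 and -0.03.

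Among the remaining cell types, 1 of 8 endothelial markers, Pecam1, rose, a call lost without Rptor cKO array 1, Rptor cKO array 2 or wild-type array 6, and Kdr, Tek and Emcn were under the control median on every array. Endothelial sums were 7.18 to 7.35 in Rptor cKO and 6.98 to 7.21 in wild type, and Tie1 and Vwf, with the highest means of that list, differed by 0.20 and 0.07. None of 7 melanocyte markers passed, with sums of 10.40 to 11.02 in Rptor cKO and 9.89 to 10.59 in wild type, and Dct and Pmel differed by 0.49 and 0.58. Of 6 Merkel cell markers Krt18 rose and Atoh1 fell, of which Krt18 passed in 1 and Atoh1 in all 6 of the fits with an array left out. Krt8 differed by 0.14, and the sums of the list overlapped.

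**Figure D4:**
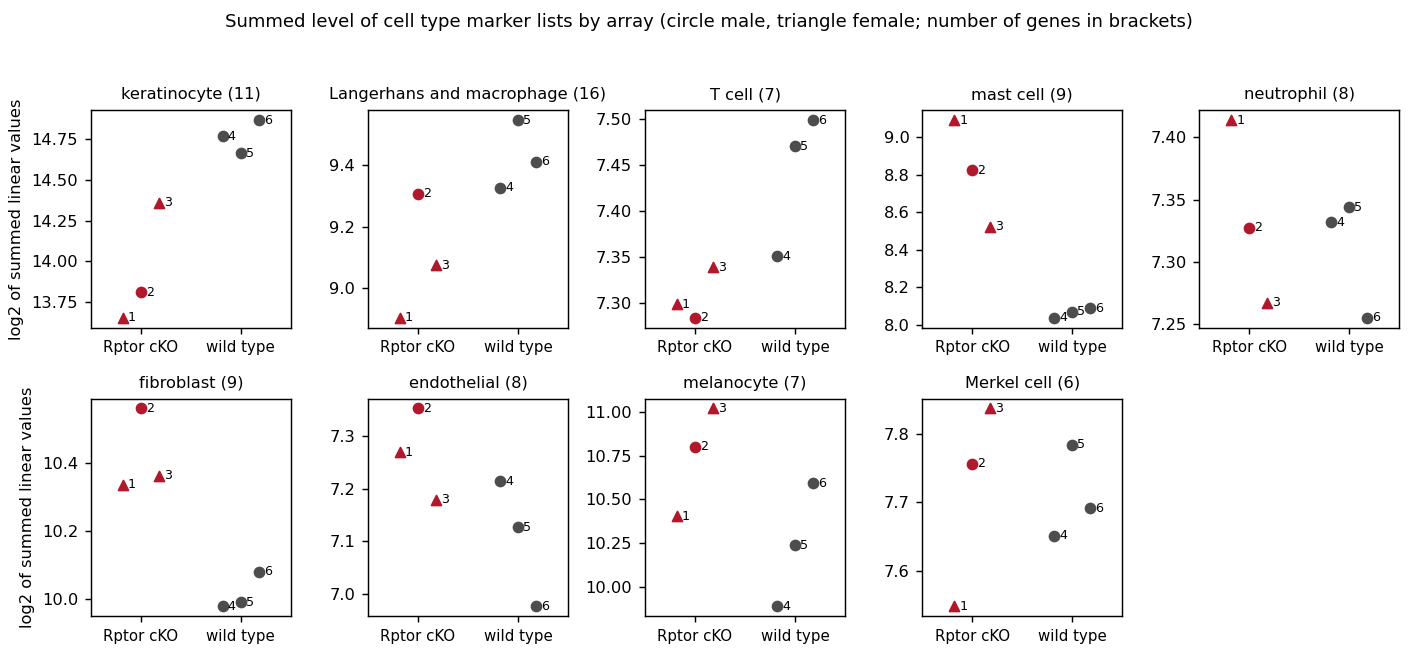
Log2 of the summed linear values (vertical axis, its own range in each panel) of 9 lists of cell type markers on Rptor cKO arrays 1 to 3 and wild-type arrays 4 to 6; circles are male and triangles female embryos. The mast cell and fibroblast sums are higher on all Rptor cKO arrays than on any wild-type array, and the keratinocyte, T cell and Langerhans and macrophage sums are lower.

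The genes most alike in pattern were sought among 14169 named genes whose mean lay above the negative control median, by Pearson's correlation over the 6 arrays. With 2 separate groups, any gene that differs between them scores high, so the values describe likeness only. For Ccl20 they were Xylt1 (0.998), Fam78b (0.997) and Bex1 (0.996), and for Tslp they were Fam78b (0.999), Fam71e1 (0.998) and Ccl20 itself (0.997). For Cxcl1 they were Lama1 (0.996), Zscan26 (0.994) and Ltb (0.993). For Cxcl16 they were Cavin2, Clcf1 and Ptms (0.998 each), and for Tnf they were P4ha3 (0.999), Cd300lf (0.999) and Timp1 (0.996). Ccl20 and Tslp shared both their highest and their lowest Rptor cKO array, and Ccl2 had the same. Ccl20 was found by its likeness to Tslp, so a shared order was built into that choice. All 6 values of Tslp lay under the negative control median.

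**Figure D5:**
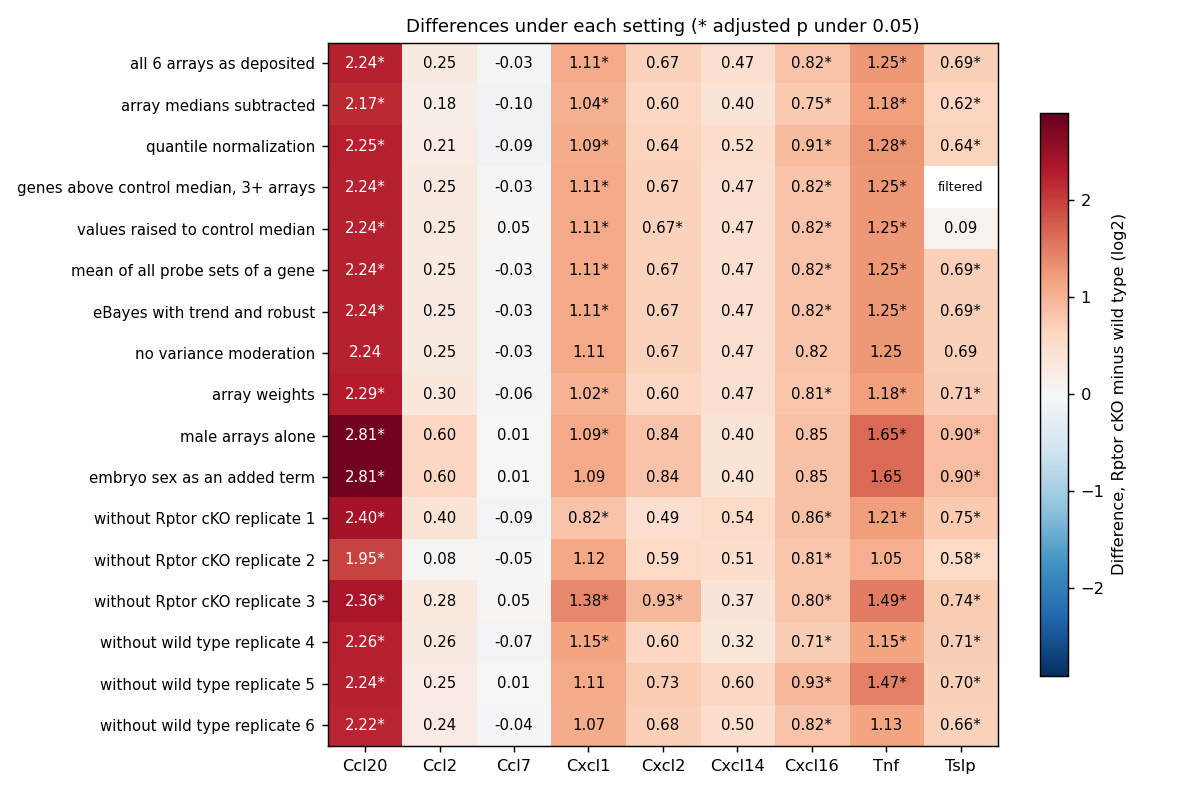
Difference, Rptor cKO minus wild type in log2 units, of the 9 genes (columns) under each setting (lines), with a star where the adjusted p was under 0.05; colour follows the value. Ccl20 is from 1.95 to 2.81 in every setting and lacks a star only without variance moderation, and Cxcl14, Ccl2 and Ccl7 have none in any.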

How the data were processed

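The authors deposited 1 table of log2 values per probe set, 1 column per array, made with RMA and Partek on mm10 per the submitters' processing notes, without versions. The log base was read from the value range. RMA makes the arrays alike in distribution and compresses dim values. The sources used here give no scan dates or detection flags, so batches were not tested, and no probe set was judged absent.

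Of 72688 probe sets, 30604 named a single gene, with symbols updated by Entrez ID. The probe set with the highest mean stood for a gene, which gave 30142 genes. Genes named only by probe sets with several symbols were not analysed. Limma 3.58.1 in R 4.3.3 (lmFit, eBayes, group as sole term, 4.30 prior degrees of freedom, two-sided, Benjamini-Hochberg) was fitted to all 6 arrays and tested on simulated data. SE is the moderated one, SD is that among a group's 3 arrays, and 95% intervals are not adjusted. An exact permutation test of 3 against 3 arrays cannot go below p = 0.1. Summed marker levels are the log2 of summed linear values. Promoters are from RefSeq, GRCm38.p6, with motifs sought in Python 3.11.15 and plots drawn with matplotlib 3.10.9.

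The 9 genes and all lists were chosen with earlier results of these data known. Named genes were the 9, Rptor, up to 3 per pathway list and direction with the smallest p that passed (or 2 where none passed), the 2 markers per cell type with the highest mean, and the 3 most alike genes of each member that rose. Alternatives were 2 other normalizations, a filter and a floor at the negative control median, averaged probe sets, 3 other variance models or weights, embryo sex, and each array left out.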

Additional observations from a re-analysis of the deposited data

How the results depend on the processing

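Without variance moderation none of the 9 genes passed, with differences as before and adjusted p of 0.101 for Ccl20 (2.24), 0.206 for Cxcl1 (1.11), 0.118 for Cxcl16 (0.82), 0.183 for Tnf (1.25) and 0.118 for Tslp (0.69), and of all genes 6 were higher and 2 lower. The exact permutation test gave p = 0.1 for these 5, the smallest it allows. The count of genes higher was 585 with array medians subtracted, 242 in the male arrays and 202 with the sex of the embryos as a term, where 625 and 440 were lower. With sex as a term 2 of the 9 genes were higher, and Cxcl1 (1.09), Cxcl16 (0.85) and Tnf (1.65) missed the threshold, as Cxcl16 did with male arrays alone (0.85). With values raised to the negative control median Tslp differed by 0.094 and Cxcl2 (0.67) passed, and Tslp had no value under the filter on dim genes. Ccl7 changed sign in 5 settings: 0.046 with that floor, 0.0090 in the male arrays and with sex as a term, 0.046 with Rptor cKO array 3 left out and 0.012 with wild-type array 5 left out.

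With 1 array left out, 3 to 6 of the 9 genes were higher and 0 lower, and 274 to 850 genes were higher and 612 to 1631 lower. The count was 3 when Rptor cKO array 2 or wild-type array 6 was left out. Differences ran from 1.95 to 2.40 for Ccl20, 0.078 to 0.40 for Ccl2, -0.089 to 0.046 for Ccl7, 0.82 to 1.38 for Cxcl1, 0.49 to 0.93 for Cxcl2, 0.32 to 0.60 for Cxcl14, 0.71 to 0.93 for Cxcl16, 1.05 to 1.49 for Tnf and 0.58 to 0.75 for Tslp. No paired analysis was possible because the groups share no replicate numbers. The 3 arrays per group and dim values near the controls limit Ccl7, Tslp, Ccl2 and the wild-type levels of Ccl20, Cxcl1 and Cxcl2.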

Other observations

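Other secreted signals stood among the genes most alike to the members, and their values are given as a description chosen after they were seen. Ltb, a membrane-held cytokine of the TNF family, read 6.69, 6.23 and 6.01 on Rptor cKO arrays 1 to 3, against 5.55, 5.57 and 5.52 on wild-type arrays 4 to 6. Ltb was found by its likeness to Cxcl1, so a shared order of the Rptor cKO arrays was built into the choice. Ltb rose by 0.76 (limma adjusted p = 0.0226). Clcf1, a cytokine of the interleukin 6 family, read 5.78, 5.85 and 5.85 on Rptor cKO arrays 1 to 3, against 5.35, 5.55 and 5.41 on wild-type arrays 4 to 6. It rose by 0.39 (limma adjusted p = 0.0348). Timp1, an inhibitor of metalloproteases, differed by 0.25 and did not pass (limma adjusted p = 0.150).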
